A study of Mus musculus with 30 samples.

Results

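The constitutive 26S proteasome was examined through the transcripts of 31 of its subunits, taken by gene symbol from a table of 55471 genes. All 31 symbols were found, and all 31 passed the filter on low counts, as did 15505 genes in all. The tumours were grown from MC38, a mouse colon carcinoma cell line, placed under the skin of female C57BL/6 mice 6 to 8 weeks old. The cells were wild type (WT) or carried loss-of-function mutations in B2m (B2mKO), the light chain of MHC class I, or in Jak1 (Jak1KO), a kinase of the interferon receptors. Each mouse was given 100 µg of either antibody into a vein on days 7, 10 and 13, and the tumour was taken on day 14. The antibody was aPD1, which blocks the T cell checkpoint receptor PD-1, or the isotype control IgG1, so the 6 groups were WT IgG1, WT aPD1, B2mKO IgG1, B2mKO aPD1, Jak1KO IgG1 and Jak1KO aPD1, with 5 RNA-seq libraries in each. All groups shared the host strain and the knockouts were in the injected cells alone, so host cells in every tumour kept both genes. RNA came from a piece of whole tumour of about 50 mg, and the labels do not say whether a knockout line was 1 clone.

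The 26S proteasome degrades proteins tagged with ubiquitin and supplies most of the peptides that MHC class I presents. Its 20S core is a stack of rings: the outer alpha rings gate the entrance and the inner beta rings hold the cutting sites of Psmb5 (chymotrypsin-like), Psmb6 (caspase-like) and Psmb7 (trypsin-like). The 19S cap sits on the core. Its base holds a ring of ATPases that unfold the substrate and the large scaffold subunits, and its lid holds the deubiquitinase Psmd14. When cells see interferon gamma, Psmb8, Psmb9 and Psmb10 can replace Psmb5, Psmb6 and Psmb7 in newly built cores, giving the immunoproteasome. The 31 genes comprised 7 alpha-ring, 4 structural beta and 3 catalytic beta subunits of the core, 6 ATPases and 3 other subunits of the base, and 8 subunits of the lid.

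The transcription factor Nrf1 (gene Nfe2l1) is known to raise proteasome genes together through antioxidant response elements, whose core is spelled TGACNNNGC. Promoters were therefore read from RefSeq windows of 250 bases before to 50 after each start site (build GRCm38.p6), which held 27 windows for 25 of the 31 genes. The core occurred on either strand in 4 of the 27 windows (14.8%), against 12.4% of all 32851 windows. The CCAAT box was in 10 (37%, against 37.4%). The GC box GGGCGG was in 15 (55.6%, against 35.7%). No test was made of these shares, and overlaps between motifs were not removed. No antioxidant core was found in the windows read for Psmd7, Psmd3, Psmc1, Psmc5 or Psmb3, which were among the subunits called lower in B2mKO tumours. All 4 stretches with the core are printed, of which 2 belong to catalytic subunits and 2 to others called lower in those tumours. They run 5′ to 3′ on the gene's strand with the core in capitals, which reads in reverse complement for Psmc6 and Psmd12.
Psmb5: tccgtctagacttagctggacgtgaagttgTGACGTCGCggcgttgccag
Psmb6: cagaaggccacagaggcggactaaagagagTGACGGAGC
Psmc6: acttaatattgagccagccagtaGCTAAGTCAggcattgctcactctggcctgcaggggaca
Psmd12: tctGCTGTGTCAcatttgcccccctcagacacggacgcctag
In GRCm38 they lie at chr14:54618023-54618072 (minus strand), chr11:70525318-70525356 (plus), chr14:45329574-45329635 (plus) and chr11:107479278-107479319 (plus), upstream of the annotated genes. The first base of the match stood 47, 9, 227 and 247 bases before the start site.

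All 31 transcripts were abundant. Their library counts ran from 839 to 15543, in totals of 17629795 to 25944701 counts per library. On the scale of RPKM (counts per kilobase of gene model, scaled to library size), which allows genes to be compared, the mean level over 30 libraries was highest for the alpha-ring gene Psma6 (135), followed by Psma5 (119), the structural beta gene Psmb2 (115) and the base scaffold gene Psmd2 (111). It was lowest for catalytic Psmb7 (21.0) and the lid gene Psmd11 (21.4). The catalytic genes Psmb5 and Psmb6 stood at 66.0 and 92.6. Subunits that the core holds in equal numbers thus differed several-fold in RPKM, a scale that depends on the annotated length of each gene. Within groups the median SD of log2 CPM (counts scaled to library size) was 0.215 over the 31, against 0.276 over all genes tested. Pseudogene copies at least 90% identical over 200 bases exist for 12 of the 31, up to 6 for Psmb3. Together they held under 1% of the parent's counts in every case, the highest being 0.540% for Psma3. Reads were counted without strand, and 8 subunits share exonic bases with a neighbour, most of all Psmb5 with Mir686 (12.1% of its exonic length) and Psmb7 with Nek6 (11.8%).

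**Figure D1:**
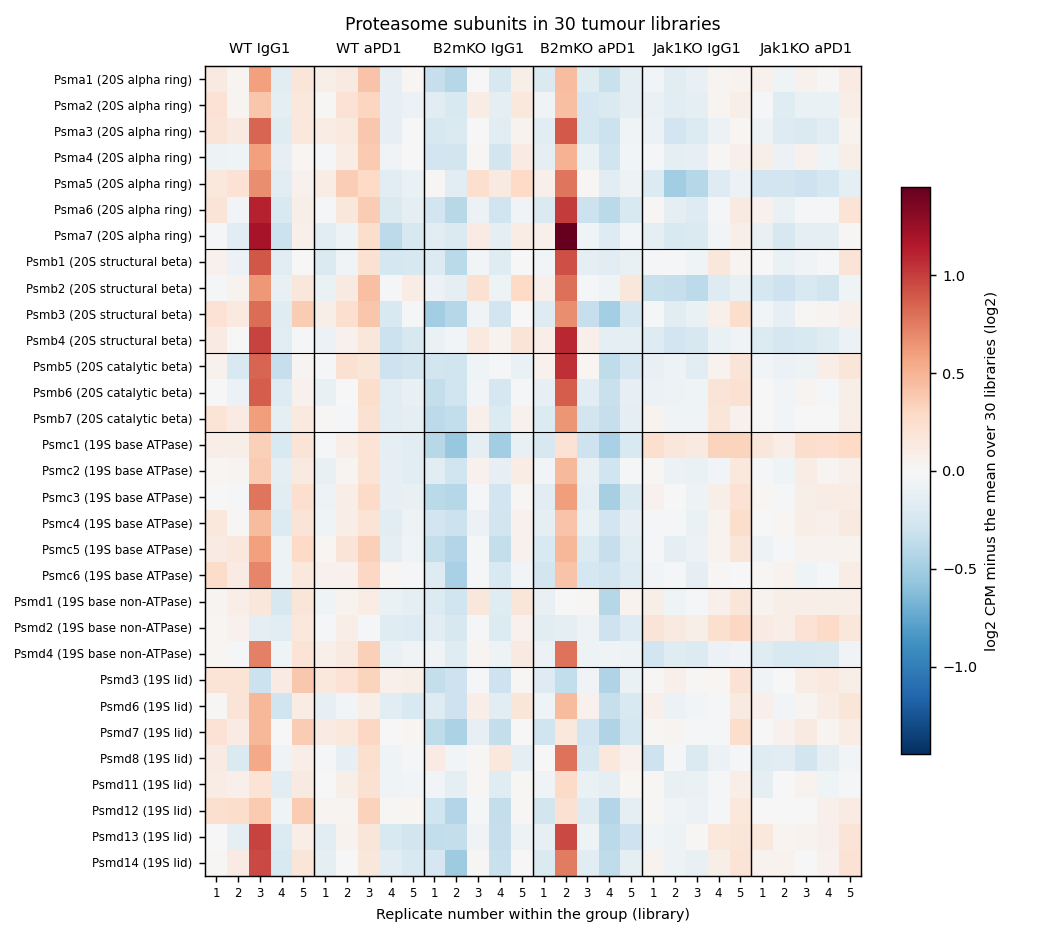
Heat map of 31 proteasome subunits (rows, by class) in 30 tumour libraries (columns, by group and replicate). Colour is log2 CPM minus the gene's mean over the 30 libraries, red above and blue below it. WT IgG1 replicate 3 and B2mKO aPD1 replicate 2 are red for nearly all subunits, and most other B2mKO columns hold more blue than red.

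By the levels of the subunits themselves, 2 libraries stood apart, 1 in a WT group and 1 in a B2mKO group. In WT IgG1 replicate 3, 28 of 31 subunits were above all 4 other libraries of the group, with a median excess of 0.59 on the log2 scale (range -0.53 to 1.30). In B2mKO aPD1 replicate 2, again 28 of 31 were above the other 4, with a median of 0.75 (-0.16 to 1.5). By class median the excess was greatest in the core. The median over the catalytic beta subunits was 0.93 and 1.06 in the respective libraries, over the structural beta subunits 0.81 and 1.01, over the alpha ring 0.65 and 0.81, and over the 3 base scaffold and ubiquitin-binding subunits 0.14 and 0.12. The ATPases had a median of 0.45 and 0.62 and the lid 0.39 and 0.53. Single subunits departed from this order. The lid subunit Psmd13 had an excess of 1.04 and 1.17, the base subunit Psmd4 0.70 and 0.85, and the alpha-ring subunit Psma2 0.33 and 0.59. Psma7, an alpha-ring subunit, had the highest excess in both, and Psmd3, a scaffold of the lid, the lowest. These libraries also differed from their groups far beyond the proteasome: 45.9% and 45.6% of all genes tested lay more than 1.5-fold from the other 4, against 6.17% to 16.6% in the remaining 28. Fibroblast markers were lower in them (median of 6 genes -1.20 and -1.13), the chaperones that assemble the proteasome were higher (8 of 8 in each, median 0.70 and 0.89), and so were the CCT chaperonin and COP9 signalosome genes (all 8 and all 9) and the immunoproteasome (3 of 3, median 0.83 and 0.82). Macrophage genes were higher in WT IgG1 replicate 3 (7 of 8, median 0.74), and epithelial markers in B2mKO aPD1 replicate 2 (5 of 5, median 4.82). The epithelial markers were near the floor, at 5.32 to 29.3 CPM summed over the 5 genes in the libraries of that group. Over all genes the shift fell with gene length (Spearman -0.36 and -0.44 over 15505 genes, a description within each library). Over the 31 subunits the Spearman value was -0.37 and -0.35 with gene length and -0.51 and -0.53 with the length of the longest mRNA. The part of any of these in the subunits' excess was not tested. Results below are given with both libraries and, where they move, without them. Because the 2 libraries were singled out by the subunits' own levels, calls made without them are not independent evidence on the subunits.

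**Figure D2:**
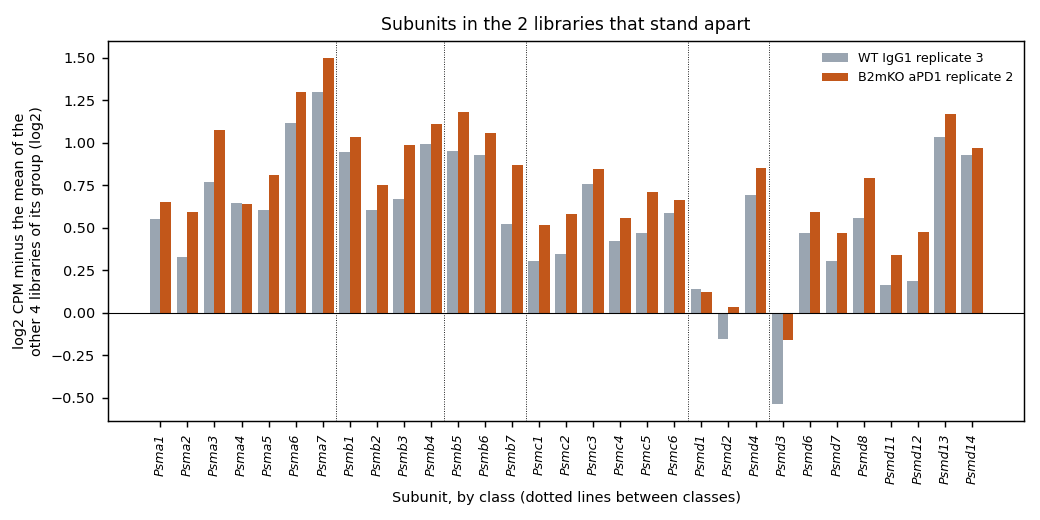
Bars show, for each of the 31 subunits on the horizontal axis, log2 CPM in the library named minus the mean of the other 4 libraries of its group. WT IgG1 replicate 3 (grey) and B2mKO aPD1 replicate 2 (orange) rise together up to 1.30 and 1.5 at Psma7, while Psmd1, Psmd2 and Psmd3 stay near or below 0.

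The knocked-out genes followed the labels. Jak1 stood at 71.5 ± 4.98 and 72.4 ± 6.99 CPM (SD, n = 5) in the Jak1KO groups, against 232 ± 28.7 and 239 ± 6.09 in WT. B2m stood at 617 ± 112 and 749 ± 160.3 in the B2mKO groups, against 3089.6 ± 911 and 4572 ± 728 in WT. In whole tumours fewer cells of a type and less RNA per cell cannot be told apart. The sources used here do not state that each library is a different mouse, and the p-values then cover the spread among libraries alone, which may be technical. The header of WT aPD1 replicate 2 names its alignment in another pattern than the headers of the other libraries, and whether it was prepared or run differently was not tested. Leaving it out moved no count of called subunits by over 1.5 times.

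Across the 6 groups, 7 of 31 subunits differed by edgeR's quasi-likelihood test (adjusted p under 0.05 over all genes), when 46.2% of all genes did. In order of p these were the ATPase Psmc1, the base scaffold Psmd2, the lid subunits Psmd7, Psmd3 and Psmd12, the structural beta subunit Psmb2 and the alpha subunit Psma5. None of the 3 catalytic subunits was among them. Without both libraries that stand apart the count was 17 of 31, when 60.7% of all genes differed, and all 7 were among the 17. Over the 11 comparisons of groups described below, with both libraries kept, 10 subunits passed in at least 1, these 7 with Psmc5, Psmc6 and Psmb3. The other 21 passed in none of them in that fit.

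**Figure D3:**
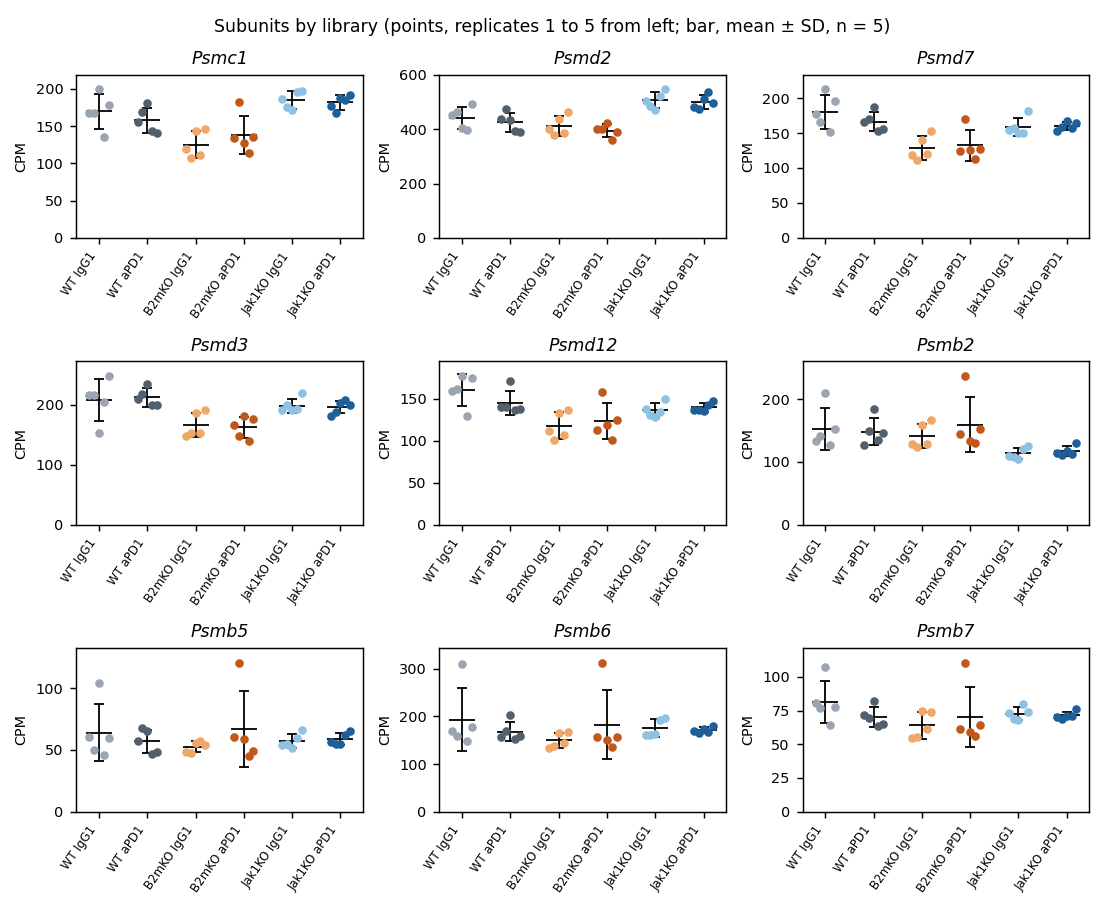
Each panel plots CPM (vertical axis, from 0) of 1 subunit in the 6 groups. Points are libraries, replicates 1 to 5 from left to right, and bars give mean ± SD (n = 5). Psmc1, Psmd7, Psmd3 and Psmd12 sit lowest in the B2mKO groups, Psmb2 in the Jak1KO groups, and the groups of Psmb5, Psmb6 and Psmb7 overlap, with the high points being WT IgG1 replicate 3 and B2mKO aPD1 replicate 2.

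In B2mKO tumours every called subunit was lower than in WT, and under IgG1 their share was close to that of all genes called. Under IgG1, 7 of 31 subunits fell against WT and 0 rose, when 21.1% of all genes were called, 9.4% higher and 11.7% lower. They were 3 lid subunits (Psmd7, Psmd12, Psmd3), 3 of the 6 ATPases (Psmc1, Psmc6, Psmc5) and the structural beta subunit Psmb3. The median log2 fold change over all 31 was -0.32, against 0.00 over all genes, and all 31 were below 0. With the 2 libraries that stand apart left out the same 7 passed, but the median was -0.12 against 0.02 over all genes, with 26 of 31 below 0. Fibroblast markers moved with this comparison: 4 of 6 were higher in B2mKO, and their summed level was 13740 to 30768 CPM against 6941 to 13197 in WT. Proliferation genes moved too, with 11 of 14 lower (median -0.54), as did the CCT chaperonin with 7 of 8 lower (median -0.43). Their part in the subunits' change was not tested. The 21 subunits called in no comparison of the fit of 30 libraries ranged from -0.52 (Psma6) to -0.10 (Psmd8) in it. That range overlaps that of the 7 called (-0.54 to -0.32). By class the median was -0.42 for the ATPases, -0.38 for the lid, -0.35 for the catalytic and -0.27 for the structural beta subunits, -0.32 for the alpha ring and -0.11 for the other base subunits.

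Psmd7, a lid subunit that pairs with the deubiquitinase Psmd14, had the smallest p. Its gene lies at chr8:107580381-107588464, minus strand (GRCm38, Ensembl release 99, as for all genes below). It measured 177, 165, 213, 152 and 196 CPM in WT IgG1 replicates 1 to 5, and 119, 111, 140.0, 119.9 and 153 in B2mKO IgG1. Under aPD1 it measured 166, 170.1, 187, 152 and 156 in WT and 125, 169.7, 126, 113 and 128 in B2mKO, where the single high value is replicate 2. The highest B2mKO IgG1 library lay just above the lowest WT IgG1 library, and the remaining ones of these 2 groups did not overlap. The log2 fold change was -0.49 ± 0.10 (SE, adjusted p = 0.00121 by edgeR) under IgG1 and -0.33 ± 0.10 (adjusted p = 0.0228) under aPD1. Without both libraries that stand apart the 2 values were -0.42 ± 0.08 and -0.42 ± 0.09.

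Psmd12, another lid subunit (chr11:107479484-107504362, plus strand), measured 159, 161, 177, 129.7 and 175 CPM in WT IgG1 and 111, 101, 133, 107 and 137 in B2mKO IgG1. Under aPD1 it measured 139.5, 139.6, 171, 137 and 138 in WT and 113, 158, 119, 101 and 124 in B2mKO. Under IgG1, 3 of 5 B2mKO libraries lay below every WT library and the other 2 lay between WT replicate 4 and the rest. It fell by edgeR's test under IgG1 (-0.45 ± 0.10, adjusted p = 0.0029). Under aPD1 its log2 fold change was -0.24 ± 0.10 (adjusted p = 0.11), and -0.33 ± 0.09 (adjusted p = 0.00669) without both libraries.

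Psmc1 (chr12:100110154-100123405, plus strand) is one of the ATPases of the base. Its values were 168, 167, 199, 135 and 179 CPM in WT IgG1 and 119, 107, 143, 111 and 146 in B2mKO IgG1. Those under aPD1 were 155, 168, 180.4, 143 and 141 in WT and 134, 182, 128, 114 and 135 in B2mKO. In Jak1KO tumours it was highest, with 186, 176, 171, 196 and 197 under IgG1 and 177, 168, 187, 186 and 192 under aPD1. Every B2mKO IgG1 library lay below every Jak1KO library, while 2 of them exceeded the lowest WT IgG1 library. Under aPD1 the B2mKO and WT groups overlapped. The log2 fold change of B2mKO against WT was -0.44 ± 0.11 (adjusted p = 0.00594, edgeR) under IgG1 and -0.19 ± 0.11 (adjusted p = 0.257) under aPD1. Without both libraries the latter was -0.29 ± 0.09 (adjusted p = 0.0183).

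Psmd3, a scaffold of the lid (chr11:98682554-98695979, plus strand), was with Psmd2 one of 2 subunits that WT IgG1 replicate 3 did not raise. It measured 217, 216, 152, 205 and 247 CPM in WT IgG1 and 148, 153, 186, 154 and 191 in B2mKO IgG1. Under aPD1 the values were 209.5, 218, 235, 199 and 199 in WT and 166, 148, 182, 139.7 and 176 in B2mKO, with no overlap between the groups, which was the case for 1 of 31 subunits and 12% of all genes. Under IgG1 the groups overlapped only through WT replicate 3, which was the lowest of its group. The log2 fold change was -0.32 ± 0.10 (adjusted p = 0.0244, edgeR) under IgG1 and -0.39 ± 0.10 (adjusted p = 0.00661) under aPD1. Without both libraries it was -0.40 ± 0.08 and -0.34 ± 0.08.

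The other 3 subunits called under IgG1 were the ATPases Psmc6 (-0.44 ± 0.13, adjusted p = 0.013, edgeR) and Psmc5 (-0.43 ± 0.13, adjusted p = 0.0232) and the structural beta subunit Psmb3 (-0.54 ± 0.18, adjusted p = 0.0271). Of the alpha ring, the catalytic beta subunits and the 3 base scaffold and ubiquitin-binding subunits, none passed. The calls were not equally firm. Psmd7, Psmd12 and Psmc1 passed in all 10 fits that left out 1 library of either group, Psmc6 in 8, Psmc5 in 6, and Psmd3 and Psmb3 in 5 each. The count over all 31 was 13 without WT IgG1 replicate 4, 4 without WT IgG1 replicate 3, B2mKO IgG1 replicate 1 or B2mKO IgG1 replicate 4, and 3 without B2mKO IgG1 replicate 2. Fitted on these 2 groups alone, 2 subunits passed.

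Under aPD1, 2 of 31 subunits fell in B2mKO against WT (Psmd3 and Psmd7) and 0 rose, when 20.4% of all genes were called, 9.86% higher and 10.5% lower. The median over the 31 was -0.01. Without both libraries the count was 10 lower and 0 higher (29.7% of all genes called) and the median -0.14, with 27 of 31 below 0. Without B2mKO aPD1 replicate 2 alone it was 6, and it was 1 without WT aPD1 replicate 3, B2mKO aPD1 replicate 1 or B2mKO aPD1 replicate 4. The 10 were the 7 called under IgG1 plus the alpha-ring subunits Psma1, Psma3 and Psma6. The IgG1 and aPD1 comparisons of B2mKO with WT use separate libraries. In the fit of 30 libraries they shared 2 calls, Psmd3 and Psmd7. In the fit of 28 libraries they shared 7 of 7 and 7 of 10, and the calls shared over all genes were not counted. In that fit the 7 shared subunits ranged from -0.42 ± 0.08 (Psmd7) to -0.29 ± 0.08 (Psmc6) under IgG1, and from -0.42 ± 0.09 (Psmd7) to -0.29 ± 0.09 (Psmc1) under aPD1. Fibroblast markers were again higher under aPD1 (4 of 6, summed level 9462 to 22439 CPM against 4860 to 9751) and proliferation genes lower (6 of 14). Endothelial markers were higher as well (3 of 5, median 0.91), of which 0 of 5 passed under IgG1. All 12 interferon gamma target genes were lower too (median -1.04), which was the case for 0 of 12 under IgG1. The part of these in the subunits' change was not tested.

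**Figure D4:**
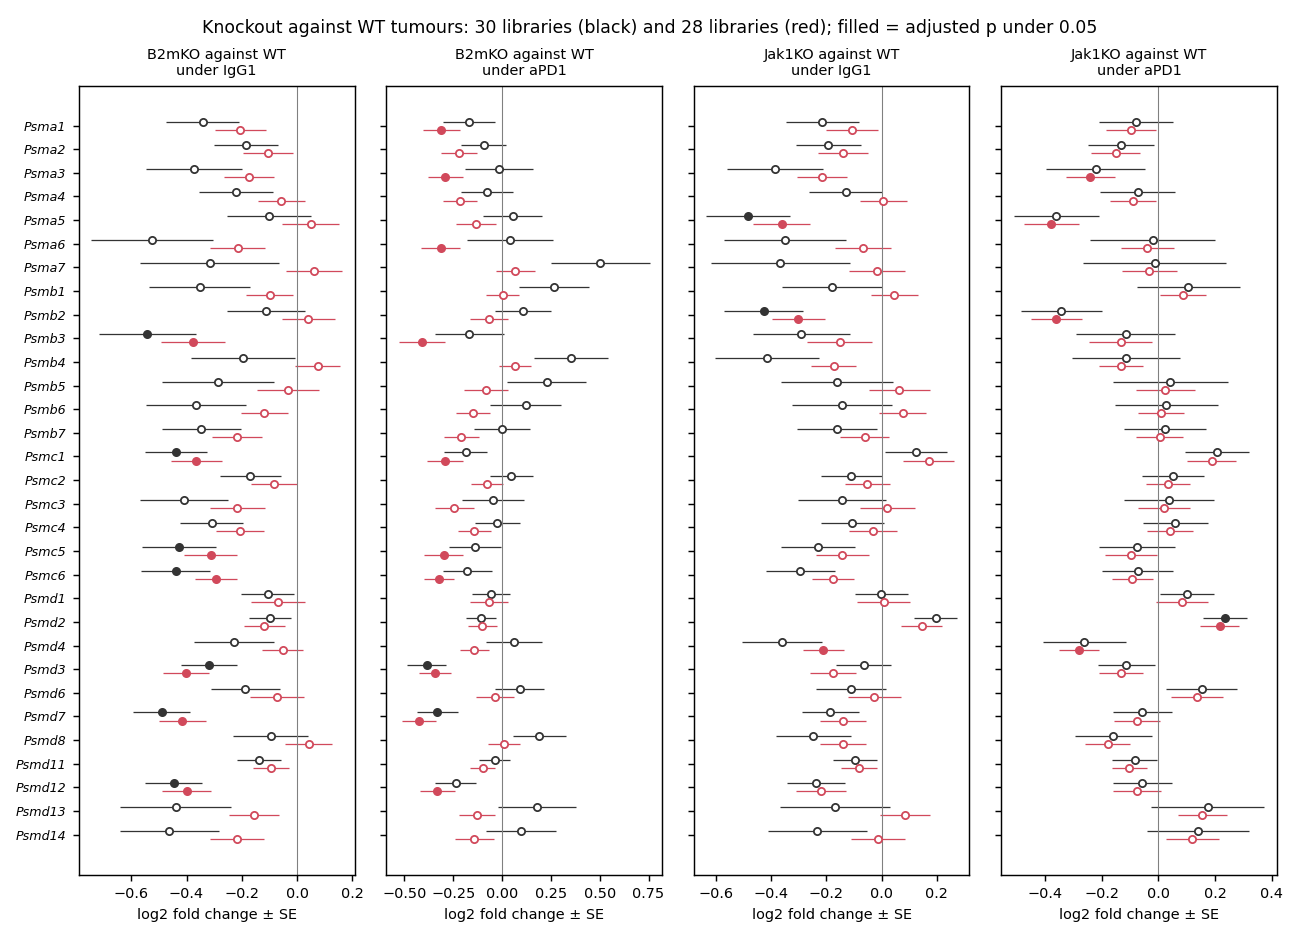
Log2 fold change ± SE of 31 subunits (rows) in 4 comparisons of knockout with WT tumours (panels, each with its own horizontal scale). Black is the fit of 30 libraries, red the fit of 28 without both libraries that stand apart, and filled points have an adjusted p under 0.05. The red points of Psmd7, Psmd12, Psmd3, Psmc1, Psmc5, Psmc6 and Psmb3 are filled in both B2mKO panels, and those of Psma5, Psmb2 and Psmd4 in both Jak1KO panels.

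In Jak1KO tumours other subunits moved. Under IgG1, 2 of 31 fell against WT and 0 rose, when 18.3% of all genes were called, 7.23% higher and 11% lower. They were Psma5, of the alpha ring, and Psmb2, a structural beta subunit. The median over the 31 was -0.19, with 29 below 0 (-0.07 and 22 without both libraries that stand apart). Psmb2 (chr4:126677630-126709714, plus strand) measured 134, 141, 210.4, 126 and 152 CPM in WT IgG1 and 109, 108, 105, 120.1 and 126 in Jak1KO IgG1. Under aPD1 it measured 128, 149, 184, 134 and 146 in WT and 114, 111, 117, 113 and 131 in Jak1KO, while in B2mKO tumours it stood at 129, 125, 158, 129 and 166 under IgG1 and 144, 236, 134, 131 and 153 under aPD1. All 5 Jak1KO IgG1 libraries were below all 5 WT IgG1 libraries, by a margin under 1 CPM; 1 of 31 subunits and 15% of all genes had no overlap here. The log2 fold change was -0.43 ± 0.14 (adjusted p = 0.0367, edgeR) under IgG1, and -0.34 ± 0.14 (adjusted p = 0.0908) under aPD1.

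Psma5 stood at 128 ± 15.3 and 130.1 ± 5.89 CPM (SD, n = 5) in Jak1KO under IgG1 and aPD1, against 179 ± 40.0 and 167 ± 26.3 in WT. Its log2 fold change was -0.48 ± 0.15 (adjusted p = 0.0251, edgeR) and -0.36 ± 0.15 (adjusted p = 0.0934). Without WT IgG1 replicate 3, Jak1KO IgG1 replicate 2 or Jak1KO IgG1 replicate 3, the count under IgG1 was 0. It was 1 without Jak1KO IgG1 replicate 1 or 4, and 4 without WT IgG1 replicate 4. Without both libraries that stand apart, Psma5 (-0.36 ± 0.10), Psmb2 (-0.30 ± 0.10) and the ubiquitin receptor Psmd4 (-0.21 ± 0.07) passed, when 22.3% of all genes did. Other genes moved with these comparisons: interferon gamma targets were lower in Jak1KO (8 of 12 under IgG1 and 12 of 12 under aPD1), and 4 of 8 T cell genes were higher under IgG1, though 1 of 8 without both libraries that stand apart. Their part was not tested.

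Under aPD1 the direction was up for 1 subunit. Psmd2 (chr16:20651652-20663414, plus strand), the large scaffold of the base, had the highest CPM of the 31. It measured 437, 475, 435, 393 and 389 CPM in WT aPD1 and 483, 475, 512, 537 and 498 in Jak1KO aPD1. The groups did not overlap, by a margin under 1 CPM, a pattern seen in 1 of 31 subunits and 20.7% of all genes. The IgG1 values were 453, 462, 404, 397 and 494 in WT and 505, 485, 471, 522 and 547 in Jak1KO. The B2mKO group means were the lowest, with library values of 399, 378, 438, 387 and 463 under IgG1 and 399, 402, 422, 361 and 391 under aPD1. Psmd2 was called higher in Jak1KO under aPD1 (0.23 ± 0.08, adjusted p = 0.0294, edgeR), the only call of the 31, when 20.8% of all genes were called and 8.4% were called higher. Under IgG1 it was 0.20 ± 0.08 (adjusted p = 0.0769). The call was lost without WT aPD1 replicate 4 or 5 or Jak1KO aPD1 replicate 3, 4 or 5. Without both libraries that stand apart, 5 of 31 passed (33.4% of all genes): Psmd2 higher (0.22 ± 0.07), and Psma5 (-0.38 ± 0.10), Psmb2 (-0.36 ± 0.09), Psmd4 (-0.28 ± 0.07) and the alpha-ring subunit Psma3 (-0.24 ± 0.09) lower. Neither of those 2 libraries is in this comparison. They reach it through the gene filter, the scaling and the shared estimate of the spread. In that fit the IgG1 and aPD1 comparisons, which use separate libraries, shared Psma5, Psmb2 and Psmd4, which is 3 of 3 and 3 of 5. In the fit of 30 libraries they shared 0 calls. The calls shared over all genes were not counted.

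The knockouts were also compared directly; these comparisons share the knockout libraries with those above. Under IgG1, Psmc1 (-0.56 ± 0.11, adjusted p = 0.000304, edgeR), Psmd2 (-0.29 ± 0.08, adjusted p = 0.00465) and Psmd7 (-0.30 ± 0.10, adjusted p = 0.0275) were lower in B2mKO than in Jak1KO, which is 3 of 31 when 28.5% of all genes were called. Psmc1 and Psmd2 did not overlap between the groups, as did not 29.1% of all genes. Under aPD1 the same 3 were lower, Psmd2 (-0.34 ± 0.08, adjusted p = 0.00123, edgeR), Psmc1 (-0.39 ± 0.11, adjusted p = 0.00848) and Psmd7 (-0.28 ± 0.10, adjusted p = 0.046), and so was Psmd3 (-0.27 ± 0.10, adjusted p = 0.041). Psmb2 (0.45 ± 0.14, adjusted p = 0.0191) and Psma5 (0.41 ± 0.15, adjusted p = 0.0402) were higher. Psmb2, Psmd2 and Psmd3 did not overlap between the groups, nor did 21.2% of all genes. That is 6 of 31 when 28.8% of all genes were called. Without B2mKO aPD1 replicate 2, neither Psma5 nor Psmb2 passed, and Psma5 was also lost without Jak1KO aPD1 replicate 1, 2, 3 or 4. Psmd3 passed in 3 and Psmd7 in 1 of the 10 fits that left out 1 library of either aPD1 group, while Psmc1 and Psmd2 passed in all 10. Under IgG1, Psmc1 and Psmd2 passed in all 10 and Psmd7 in 6. The aPD1 count was 3 without Jak1KO aPD1 replicate 2, 3 or 4. In the fit of 28 libraries the counts were 9 (3 higher and 6 lower, 41.2% of all genes) under IgG1 and 11 (1 higher and 10 lower, 38.5%) under aPD1. Other lists moved with these comparisons. Under IgG1, fibroblast markers were higher in B2mKO than in Jak1KO (4 of 6), proliferation genes lower (11 of 14) and interferon gamma targets higher (9 of 12, with 1 lower). Under aPD1, fibroblast markers (2 of 6), endothelial markers (3 of 5) and interferon gamma targets (9 of 12) were higher and proliferation genes lower (8 of 14). Epithelial markers were higher too (3 of 5), at summed levels near the floor (1.88 to 29.3 CPM over both aPD1 groups). In the fit of 28 libraries, 6 of 6 fibroblast, 5 of 5 endothelial and 2 of 5 epithelial markers were higher under aPD1. There 13 of 14 proliferation genes were lower. Their part was not tested.

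PD-1 blockade changed no subunit past the threshold in any genotype. In WT tumours 0 of 31 passed by edgeR, and 0 had an unadjusted p under 0.05, when 4.38% of all genes passed (3.73% higher) and 18% had such a p. Leaving out both libraries it was again 0 of 31, when 5.93% of all genes passed, 5.08% higher and 0.848% lower. In no subunit did the aPD1 and IgG1 groups of a genotype stay clear of each other, which 1.83% of all genes did in WT, 0.477% in B2mKO and 0.406% in Jak1KO. The 4 smallest p belonged to the deubiquitinase Psmd14 (-0.33 ± 0.18, adjusted p = 0.33), Psmb4 (-0.32 ± 0.19), Psmd6 (-0.20 ± 0.13) and Psmb1 (-0.29 ± 0.18). In B2mKO tumours 0 of 31 and 0% of all genes passed, and in Jak1KO tumours likewise 0 of 31 and 0%, with 0 subunits at an unadjusted p under 0.05 in either. The smallest adjusted p was 0.801 in B2mKO and 1 in Jak1KO. DESeq2 also called 0 in each genotype. The 4 with the smallest p were Psmb1 (0.32 ± 0.18), Psma7 (0.45 ± 0.25), Psmb5 (0.35 ± 0.20) and Psmd13 (0.33 ± 0.20) in B2mKO, and Psma1 (0.08 ± 0.13), Psmd6 (0.06 ± 0.13), Psmc6 (0.05 ± 0.12) and Psma4 (0.05 ± 0.13) in Jak1KO.

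The signs of these small values followed the 2 libraries that stand apart. In WT, whose control group holds replicate 3, 30 of 31 subunits were below 0 with aPD1 (median -0.14). In B2mKO, whose aPD1 group holds replicate 2, 28 of 31 were above 0 (median 0.14). Without both, the medians were -0.03 and -0.04, with 18 and 24 of 31 below 0. In Jak1KO the median was 0.01, with 18 above 0. The difference between the aPD1 effect in B2mKO and in WT passed for 0 of 31, when 0.0967% of all genes passed by edgeR (0.0838% lower). At an unadjusted p under 0.05 there were 4 of 31 (12.9%), against 16.4% of all genes. The smallest p were those of Psmb1 (0.62 ± 0.26, adjusted p = 0.266), Psma7 (0.82 ± 0.36), Psmd14 (0.56 ± 0.25) and Psmd13 (0.62 ± 0.28). The same difference between Jak1KO and WT passed for 0 of 31 and 0% of all genes, with 0 at an unadjusted p under 0.05. Its smallest p were those of Psmd6 (0.26 ± 0.18, adjusted p = 0.732), Psmd14 (0.37 ± 0.25), Psmc6 (0.22 ± 0.18) and Psmd12 (0.18 ± 0.15). DESeq2 called 0 in both.

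In the fit of 30 libraries the 3 catalytic subunits were called in no comparison. Their genes lie at chr14:54614119-54618022, minus strand (Psmb5), chr11:70525367-70527858, plus strand (Psmb6) and chr2:38588036-38644087, minus strand (Psmb7). Psmb5 measured 60.6, 49.7, 104, 46.1 and 59.6 CPM in WT IgG1, 48.1, 47.5, 55.6, 57.1 and 54.0 in B2mKO IgG1 and 53.9, 54.9, 51.5, 59.9 and 65.9 in Jak1KO IgG1. Under aPD1 it measured 57.1, 67.3, 65.4, 46.8 and 48.1 in WT. It measured 60.4, 120.3, 59.1, 45.0 and 48.8 in B2mKO aPD1, and 56.3, 54.4, 55.1, 61.8 and 65.5 in Jak1KO aPD1. Its 2 highest libraries are those that stand apart, and the rest of the groups overlap. Psmb6 measured 169.7, 159.6, 311, 149 and 177 CPM in WT IgG1, 134, 139, 165, 144 and 167 in B2mKO IgG1 and 161, 161, 163, 193 and 198 in Jak1KO IgG1. Under aPD1 it measured 157, 170.4, 202, 152 and 158 in WT. It measured 157, 312, 151, 136 and 156 in B2mKO aPD1, and 169, 165, 174, 168 and 180.0 in Jak1KO aPD1. The same 2 libraries are the highest of all 30 here. With them set aside, the remaining B2mKO aPD1 libraries (136 to 157) lie below every Jak1KO library (161 to 198). All other pairs of groups overlap for Psmb6. With every library kept, 21.2% of all genes did not overlap between B2mKO and Jak1KO under aPD1. The share with the 2 libraries set aside was not computed. Psmb7, the least abundant per length, measured 80.9, 76.7, 107, 64.2 and 77.8 in WT IgG1, 54.5, 55.3, 74.8, 61.5 and 73.8 in B2mKO IgG1 and 73.2, 68.5, 68.3, 79.9 and 73.9 in Jak1KO IgG1. Under aPD1 it measured 71.6, 69.4, 82.2, 63.8 and 64.8 in WT. It measured 61.6, 110.2, 58.9, 56.2 and 64.3 in B2mKO aPD1, and 70.4, 69.0, 71.2, 71.0 and 75.8 in Jak1KO aPD1. The highest 2 libraries were once more those that stand apart, and the Jak1KO groups had the narrowest spread. Here too the remaining B2mKO aPD1 libraries (56.2 to 64.3) lie below every Jak1KO library (68.3 to 79.9), again without a share of all genes to set beside it. In the fit of 30 libraries, the test of any difference among the 6 groups gave an adjusted p (edgeR) of 0.641 for Psmb5, 0.552 for Psmb6 and 0.408 for Psmb7.

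In the fit of 30 libraries, inducible counterparts passed in Jak1KO against WT, where none of the 3 constitutive catalytic subunits did. Against WT, Psmb9 was lower in Jak1KO, with a log2 fold change of -1.51 ± 0.28 (adjusted p = 0.000235, edgeR) under IgG1 and -2.24 ± 0.28 (adjusted p = 9.46e-07) under aPD1. Psmb8 was lower under both (-0.88 ± 0.17 and -1.17 ± 0.18), and Psmb10 passed under aPD1 (-0.66 ± 0.16) but not under IgG1 (-0.32 ± 0.16). In B2mKO none of the 3 passed against WT. With the 2 libraries that stand apart left out, 2 of 3 were lower in B2mKO under aPD1 and 0 of 3 passed under IgG1. The ratio of each inducible subunit to the constitutive one it replaces, in RPKM, sets both on one scale. It was chosen after the levels were seen.

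Psmb9 over Psmb6 was 0.232 ± 0.0672 (SD, n = 5) in WT IgG1 and 0.444 ± 0.0926 in WT aPD1. It was 0.264 ± 0.0245 and 0.252 ± 0.0367 in B2mKO, and 0.0923 ± 0.0158 and 0.0924 ± 0.0264 in Jak1KO. The B2mKO value was below WT under aPD1 (exact permutation adjusted p = 0.0306, and 0.0571 without both libraries). Every Jak1KO library was below every WT library under either antibody (exact permutation test on log2 ratios, two-sided, p = 0.00794, the smallest 5 against 5 can give, adjusted p = 0.0179 over 27 tests). In WT the ratio was 1.95-fold higher with aPD1 than with IgG1, with 1 of 5 aPD1 libraries within the IgG1 range (exact permutation p = 0.0238, adjusted p = 0.0402). Psmb10 over Psmb7 was 4.22 ± 0.606 in WT IgG1 and 5.82 ± 0.800 in WT aPD1 (exact permutation p = 0.0159, adjusted p = 0.0306). Psmb8 over Psmb5 was 1.01 ± 0.231 and 1.37 ± 0.185 (exact permutation p = 0.0317, adjusted p = 0.0504). In Jak1KO, Psmb8 over Psmb5 was 0.601 ± 0.0326 and 0.587 ± 0.0919, again without overlap with WT under the same antibody (exact permutation adjusted p = 0.0179 for each). Psmb10 over Psmb7 was 3.78 ± 0.483 and 3.64 ± 0.282 there, lower than in WT under aPD1 (exact permutation adjusted p = 0.0179) while under IgG1 the difference did not pass (exact permutation adjusted p = 0.306). In B2mKO, Psmb10 over Psmb7 was 5.71 ± 0.368 under IgG1, 1.36-fold the WT level (exact permutation adjusted p = 0.0179). Under aPD1 it was 5.36 ± 0.313 (exact permutation adjusted p = 0.36). Psmb8 over Psmb5 was 1.20 ± 0.0683 under IgG1 and 1.04 ± 0.170 under aPD1 in B2mKO, the latter below WT (exact permutation adjusted p = 0.0402, and 0.0804 without both libraries). With aPD1 none of the 3 ratios passed in B2mKO or Jak1KO (exact permutation, adjusted p from 0.131 to 0.897). Without both libraries that stand apart, the 2 aPD1 calls in WT had an exact permutation adjusted p of 0.0571 while their log2 differences were 1.05 and 0.50. Whether the aPD1 effect on the ratios differed between genotypes was not tested.

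**Figure D5:**
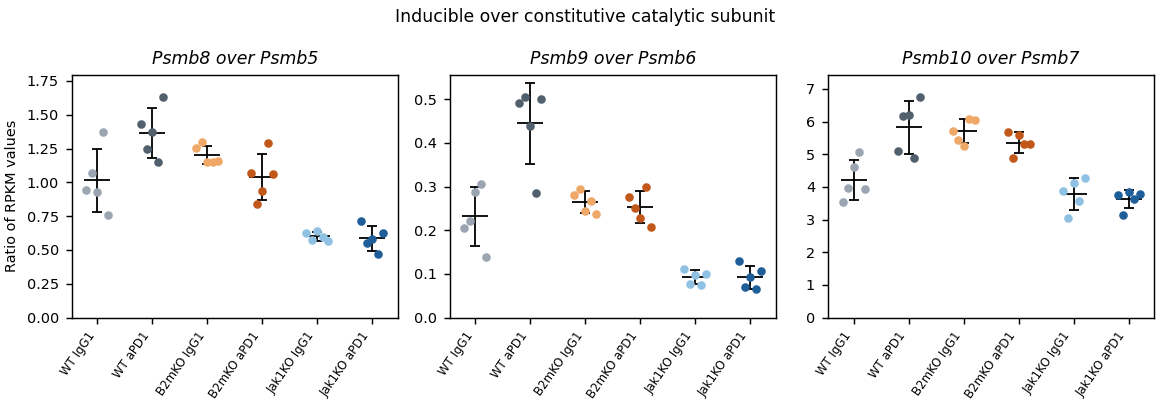
Ratio of RPKM values (vertical axis from 0) of each inducible catalytic subunit to the constitutive one it replaces, in 6 groups. Points are libraries and bars mean ± SD (n = 5). All Jak1KO points lie below all WT points for Psmb8 over Psmb5 and Psmb9 over Psmb6. WT IgG1 replicate 3 and B2mKO aPD1 replicate 2 lie among the other points of their groups or at their low end in all 3 panels.

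Around the core and cap, some other proteasome genes passed against WT, when 18.3% to 21.1% of all genes were called in these comparisons. Of the 4 activator genes, Psme1 (-0.57 ± 0.17) and Psme2 (-0.53 ± 0.19), which form the interferon-inducible 11S cap, were lower in Jak1KO under aPD1. Psme3, the nuclear 11S activator, was lower in B2mKO under IgG1 (-0.37 ± 0.09, adjusted p = 0.00403, edgeR) and aPD1 (-0.46 ± 0.09, adjusted p = 0.000463). Of 8 assembly chaperones, Psmg3 was lower in B2mKO under IgG1 (-0.62 ± 0.21) and Psmg2 higher in Jak1KO under aPD1 (0.35 ± 0.13). Of 7 further subunits and regulators tested, the cap deubiquitinase Uchl5 was lower in B2mKO under IgG1 (-0.41 ± 0.12) and the small lid subunit Sem1 lower in Jak1KO under IgG1 (-0.24 ± 0.08) and aPD1 (-0.26 ± 0.08). Nfe2l1 itself, the gene of Nrf1, was lower under aPD1 in B2mKO (-0.53 ± 0.15, adjusted p = 0.0135) and Jak1KO (-0.54 ± 0.15, adjusted p = 0.0113), 2 comparisons that share the WT aPD1 libraries. Of the 7 genes of Nrf1, its relative Nfe2l2 and the proteins that release and process Nrf1, 1 rose (Nfe2l2, 0.22 ± 0.08) and 0 fell in B2mKO under IgG1, and 0 passed in Jak1KO under IgG1. In the fit of 28 libraries, 2 rose and 2 fell in B2mKO under IgG1 and 3 fell in Jak1KO under IgG1. Under aPD1, with all libraries, Ngly1, which removes sugars from Nrf1, was higher in B2mKO (0.62 ± 0.13) and Jak1KO (0.38 ± 0.13). In the fit of 28 libraries under aPD1, 5 of these 7 genes fell and 1 rose in Jak1KO, when 33.4% of all genes were called. In B2mKO 2 fell and 1 rose, when 29.7% were called. Of the 8 assembly chaperones, 2 rose and 1 fell in Jak1KO there, and 2 fell in B2mKO. Of the 7 further subunits and regulators, 1 rose and 1 fell in each knockout.

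Beyond the proteasome, other protein-quality lists showed where the subunits stood. Against WT under IgG1, 2 of 10 ubiquitin genes and shuttle factors fell in B2mKO and 2 rose in Jak1KO, and 2 of 12 heat shock genes fell in B2mKO and 1 fell in Jak1KO. Of the 9 COP9 signalosome genes, whose complex resembles the lid, 4 fell in B2mKO and 1 in Jak1KO. Class I peptide loading genes gave 3 higher and 1 lower of 8 in B2mKO, and 6 lower in Jak1KO. Interferon gamma targets gave 2 of 12 higher in B2mKO and 8 lower in Jak1KO. In WT tumours aPD1 raised 11 of 12 interferon gamma targets and 4 of 8 class I peptide loading genes, while it raised or lowered 0 of 31 proteasome subunits, 0 of 3 immunoproteasome subunits, 0 of 8 assembly chaperones and 0 of 4 activators. In the fit of 28 libraries aPD1 raised 3 of 3 immunoproteasome subunits and 1 of 4 activators in WT, and again 0 of 31 constitutive subunits and 0 of 8 assembly chaperones passed. Under IgG1, 0 of 8 T cell and 0 of 8 macrophage genes passed in B2mKO, and 1 of 8 macrophage genes was higher in Jak1KO. Without both libraries, the counts against WT under IgG1 that moved by over 1.5 times were class I loading in B2mKO (5 higher), activators in B2mKO (1 higher) and Jak1KO (2 lower), and ubiquitin genes in B2mKO (1 higher beside 2 lower). The 5 epithelial markers, which would define a carcinoma cell of the colon lining, were near absent, with summed levels of 1.88 to 31.1 CPM over the 30 libraries.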

How the data were processed

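Gene counts of 30 bulk RNA-seq libraries were used as deposited. Per the file headers, the authors counted unstranded paired reads with featureCounts 2.0.0 on Ensembl release 99 (GRCm38), leaving out multi-mapping reads; the submitters' processing notes also name STAR 2.5.2a, FastQC 0.11.2, Cufflinks 2.2.1 and edgeR 3.24.3. The notes give the build as mm10. Samples were grouped by their titles, which give genotype and antibody.

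Genes passing filterByExpr (minimum count 10, minimum total 15; 15505 genes) were fitted with edgeR 4.0.16 in R 4.3.3: TMM normalization (factors 0.939 to 1.04) and quasi-likelihood with robust dispersion over 6 group means. P-values were adjusted by Benjamini-Hochberg over all genes tested, and a gene was called, and said to rise or fall, at an adjusted p under 0.05. Log2 CPM for the library shifts and the SD within groups used a prior count of 2, and log2 fold changes used edgeR's default. The SE was taken from the log2 fold change and the F statistic (their quotient, F under a root). CPM and RPKM were computed from the counts with TMM library sizes, RPKM with the length given in the files. Log2 ratios were compared by exact permutation over libraries. The fit was tested on simulated data.

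Library totals of 17629795 to 25944701 counts gave each subunit at least 839 counts, so counting error was small against the spread between libraries. None of the 60 pairs of replicates agreed within counting noise.

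The 31 members and the gene lists (immunoproteasome, activators, assembly chaperones, other proteasome subunits and regulators, Nrf1 and its processing, ubiquitin genes and shuttle factors, heat shock, CCT, COP9, class I loading, interferon gamma targets, proliferation, and T cell, macrophage, fibroblast, endothelial and epithelial markers) were chosen with earlier results of these data known. Named with statistics were subunits past the threshold, or the 4 with the smallest p where none passed. Levels in every library were given for the 6 with the smallest p over the 6 groups and the 3 catalytic subunits. Alternatives were DESeq2 1.42.0, its size factors, no filter, a replicate block, the compared groups alone, each library left out, and both libraries that stand apart left out. Promoters came from RefSeq, and copies of the subunits were found with blastn.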

Additional observations from a re-analysis of the deposited data

Results flagged for a closer look

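In 186 groups of 5 libraries (31 subunits in 6 groups), 40 had 1 library beyond the 95% limit of Dixon's test (gap over range above 0.71), when chance gives about 1 in 20 groups. Of the 40, 11 were WT IgG1 replicate 3, 22 were B2mKO aPD1 replicate 2 and 7 were other libraries. The 31 subunits were measured in the same libraries, so the 186 groups are not independent and the 40 are not separate events.

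Among the 9 subunits shown by library, 10 of 54 groups were beyond the limit. B2mKO aPD1 replicate 2 was the highest of its group for the catalytic subunits Psmb5 (120.3 CPM), Psmb6 (312 CPM) and Psmb7 (110.2 CPM), for the structural beta subunit Psmb2 (236 CPM) and for the lid subunit Psmd7 (169.7 CPM). WT IgG1 replicate 3 was the highest for Psmb5 (104 CPM) and Psmb6 (311 CPM). Jak1KO IgG1 replicate 5 was the highest of its group for the lid subunits Psmd3 (219 CPM) and Psmd7 (182 CPM). WT aPD1 replicate 3 was the highest for Psmd12 (171 CPM). Of the knocked-out genes, Jak1 was lowest in WT IgG1 replicate 3 (182 CPM), far from the other 4 WT libraries of that group and above every Jak1KO library.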

How the results depend on the processing

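Counts of subunits called are given in the order B2mKO against WT (IgG1, aPD1), Jak1KO against WT (IgG1, aPD1), B2mKO against Jak1KO (IgG1, aPD1) and any difference. In the reported fit they were 7, 2, 2, 1, 3, 6 and 7. With 1 library left out they ranged over 3 to 13, 1 to 6, 0 to 4, 0 to 1, 2 to 4, 3 to 6 and 7 to 17. With both libraries that stand apart left out, they were 7, 10, 3, 5, 9, 11 and 17. Fitted on the compared groups alone, the first 6 were 2, 1, 0, 4, 9 and 3, with fewer libraries behind the spread. Without the filter on low counts, Jak1KO against WT gave 1 (IgG1) and 0 (aPD1), and B2mKO against Jak1KO under aPD1 gave 3. DESeq2 gave 9, 2, 3, 1, 4, 8 and 8. For the 3 aPD1 comparisons and the 2 differences between them, every one of these settings gave 0, the lowest and highest with 1 library left out being 0 and 0. Replicate numbers were shared between groups, and 25 of 75 same-numbered pairs had r over 0.1 (range -0.587 to 0.464). Differently numbered pairs were not compared, so these values cannot show whether the numbers pair libraries. With the replicate block the counts were 7, 2, 2, 1, 3, 5 and 7. The any-difference count was 17 without B2mKO aPD1 replicate 2. No subunit named with its fold change reversed. With single libraries left out, 431 of these values stayed on their side of the threshold and 59 lost the call. Of the ratios of inducible to constitutive subunits, 7 changed sign with 1 library left out, all in the uncalled comparison of aPD1 with IgG1 in Jak1KO. Their log2 differences ranged over -0.12 to 0.0332 (Psmb8 over Psmb5), -0.16 to 0.0841 (Psmb9 over Psmb6) and -0.12 to 0.00309 (Psmb10 over Psmb7). With both libraries out, 4 of the 18 ratio comparisons that use either library lost their call and the other 14 stayed on their side of the threshold. Those lost were Psmb8 over Psmb5 (-0.33) and Psmb9 over Psmb6 (-0.80) in B2mKO against WT under aPD1, and Psmb9 over Psmb6 (1.05) and Psmb10 over Psmb7 (0.50) in WT with aPD1. With all libraries these 4 log2 differences were -0.40, -0.80, 0.96 and 0.46, in that order. Fewer libraries also raise the smallest p that exact permutation can give. The cause of these changes was not tested.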
